A study of Macaca mulatta with 45 samples.

Results

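DNA repair genes were described here in the brains of rhesus macaques examined months to years after irradiation. The genes were chosen by their symbols alone, with a list of name patterns that covers damage sensors (ATM, ATR, PRKDC, TP53BP1, NBN, MRE11), XRCC, RAD, ERCC, FANC, MSH and MLH genes, PARP1 to PARP3, BRCA1 and BRCA2, DNA ligases, 5 repair polymerases (POLB, POLH, POLI, POLK and POLL), XPA, XPC, OGG1, APEX and DDB genes. The list matched 64 of 30246 genes in the deposited table. A further 8 symbols that the pattern takes (RAD1, APEX1, RAD51AP2, DDB2, RAD21L1, ERCC3, XRCC4 and POLB) were not analysed here.

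Cells repair broken or altered DNA by several routes. Double-strand breaks are sensed by the MRE11-RAD50-NBN complex and the kinases ATM, ATR and DNA-PKcs, and are sealed either by non-homologous end joining or, in dividing cells with a sister chromatid, by homologous recombination through BRCA1 and BRCA2. Altered bases are cut out by base excision repair, bulky lesions by nucleotide excision repair and replication errors by mismatch repair, while the Fanconi anaemia proteins unhook crosslinked strands and translesion polymerases copy past lesions that remain. Neurons and mature oligodendrocytes do not divide, so excision repair and end joining are the routes best known in the adult brain.

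RNA was sequenced from 3 brain regions of 15 animals, with 5 animals in each of 3 irradiation groups and 1 library per animal and region. Animals of the fWBI group had received fractionated whole brain irradiation to 40 Gy in 8 fractions of 5 Gy, 12 months before necropsy. Animals of the TBI group had received a single dose of total body irradiation 6 to 9 years before necropsy, at 6.75 Gy (2 animals), 7.2 Gy (2 animals) or 8.05 Gy (1 animal). Controls were not unirradiated: their thorax had received 10 Gy, and the labels put the dose to their brain at 0.1 Gy. The regions were the centrum semiovale (white matter), the hippocampus and the dorsolateral prefrontal cortex, and each was homogenised whole, so that fewer cells of a type and less RNA per cell cannot be told apart. The ages of the animals are not used here. The irradiated groups differ from each other in dose, schedule, exposed volume and time since exposure at once, and these cannot be told apart.

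Libraries held 6625435 to 12541507 counts, of which the DNA repair genes took 0.36 to 0.476%. Myelin markers, which define white matter, summed to 21300 to 53700 CPM (counts scaled to the library total) in the white matter libraries and to at most 5470 CPM in the grey matter ones. In control white matter, animals 1 and 3 stood apart: the mean log2 CPM of 13 pan-neuronal genes was 8.67 and 7.61 in them and 5.03 to 5.40 in the other 3, against 4.70 to 5.63 in fWBI and 4.96 to 5.64 in TBI white matter. The main results that use control white matter are therefore also given without these 2 libraries. Levels below are CPM with TMM-scaled library sizes, listed for animals 1 to 5. A gene was called at an adjusted p under 0.05 (edgeR's quasi-likelihood test, Benjamini-Hochberg adjustment over all genes tested). Fold changes carry their standard error. Counts at an unadjusted p under 0.05 are given without the share of all genes, and no excess is read from them.

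Of the 64 genes, 61 passed the filter on low counts in white matter, the same number in hippocampus, and 60 in prefrontal cortex. FANCA, a core subunit of the Fanconi anaemia complex, had 0 counts in every library. MSH4, which acts in meiotic recombination, reached at most 7 counts in a library, and RAD54L, a recombination motor protein, at most 14. RAD51B failed the filter in prefrontal cortex alone.

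In white matter 12 months after fWBI, 5 DNA repair genes rose against controls and none fell: PARP3, RAD51B, MSH5, BRCA2 and POLH. That is 5 of 61 tested, or 8.2%, whereas 16.7% of all 15235 genes tested were called in this comparison, 8.8% as higher and 7.86% as lower. The share of DNA repair genes called thus lay below that of all genes. Their median log2 fold change was 0.01 (all genes: -0.03), and the median of its absolute size was 0.12 (all genes: 0.22). The 95% interval of the log2 fold change lay wholly within ±0.5 for 35 of the 61 genes (57.4%), against 35.1% of all genes. Interval width also depends on the count level, which was higher for the DNA repair genes. Their median log2 CPM was 4.91, against 4.35 for all genes, in the fit without control animals 1 and 3. Without control animals 1 and 3, 4 of 61 genes (6.56%) were called, against 10.8% of all genes, and POLH was the one no longer called.

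PARP3 (ENSMMUG00000022203), an ADP-ribosyltransferase that acts at DNA breaks, was at 22.7, 34.0, 30.6, 22.1 and 35.3 CPM in fWBI white matter. In TBI white matter it was at 13.4, 15.0, 11.1, 13.5 and 16.7 CPM, and in control white matter at 8.54, 17.2, 10.1, 14.6 and 13.7 CPM. Every fWBI library lay above every library of the other groups, which overlapped each other. The log2 fold change was 1.20 ± 0.20 against controls (adjusted p = 0.000591) and 1.08 ± 0.20 against TBI (adjusted p = 0.00273). Against controls it was 0.97 ± 0.19 without control animals 1 and 3 (adjusted p = 0.00351).

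RAD51B (ENSMMUG00000015873), a mediator of homologous recombination, was at 10.4, 19.3, 9.43, 11.7 and 6.83 CPM in fWBI white matter. TBI white matter held 5.14, 3.50, 2.71, 3.79 and 3.45 CPM, and control white matter 1.37, 5.39, 2.94, 5.59 and 4.17 CPM. The fWBI libraries again stood above all others, with animal 2 highest. This was the largest log2 fold change among the DNA repair genes, 1.60 ± 0.34 against controls (adjusted p = 0.00434), and it was 1.66 ± 0.34 against TBI (adjusted p = 0.00657). Against controls it was 1.23 ± 0.31 when control animals 1 and 3 were left out (adjusted p = 0.0185).

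BRCA2 (ENSMMUG00000007197), a core protein of homologous recombination, was at 4.19, 6.59, 3.51, 4.78 and 3.20 CPM in fWBI white matter. The TBI libraries held 2.75, 1.5, 1.59, 2.91 and 2.59 CPM and the control libraries 1.37, 1.76, 3.04, 1.86 and 2.74 CPM. The fWBI group did not overlap the others, but its lowest library lay only just above the highest control. Its log2 fold change was 1.08 ± 0.29 against controls (adjusted p = 0.0168) and 1.00 ± 0.28 against TBI (adjusted p = 0.0442). The call against controls was lost without fWBI animal 2, whose library was the highest (0.89, adjusted p = 0.0568). It was also lost with the pan-neuronal marker mean as a covariate for the dissection (0.97, adjusted p = 0.0716) and with replicate number as a block (1.06, adjusted p = 0.0553). It held without control animals 1 and 3 (1.10, adjusted p = 0.0421).

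MSH5 (ENSMMUG00000009702), a member of the mismatch repair family best known as the partner of MSH4 in meiotic crossing over, was at 6.42, 8.49, 5.31, 7.67 and 5.01 CPM in fWBI white matter. It was at 5.26, 3.13, 2.52, 4.04 and 3.77 CPM in TBI white matter and at 2.96, 3.63, 3.24, 2.86 and 3.95 CPM in control white matter. All fWBI libraries exceeded all controls, while TBI animal 1 reached into the fWBI range. MSH5 had a log2 fold change of 1.01 ± 0.22 against controls (adjusted p = 0.00502; 0.95 ± 0.27, adjusted p = 0.0351, without control animals 1 and 3) and 0.84 ± 0.22 against TBI (adjusted p = 0.0279).

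POLH (ENSMMUG00000008903), the translesion polymerase that copies past ultraviolet lesions, differed by less. Its level was 26.2, 25.4, 23.3, 24.0 and 28.3 CPM in fWBI white matter, 19.5, 21.6, 19.6, 20.2 and 20.5 CPM in TBI white matter and 19.5, 19.8, 18.3, 23.0 and 19.4 CPM in control white matter. The lowest fWBI library lay just above control animal 4. It rose by 0.38 ± 0.09 on the log2 scale against controls (adjusted p = 0.011) and by 0.35 ± 0.09 against TBI (adjusted p = 0.0309). Without control animals 1 and 3 it was 0.33 against controls and the call was lost (adjusted p = 0.0586).

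**Figure D1:**
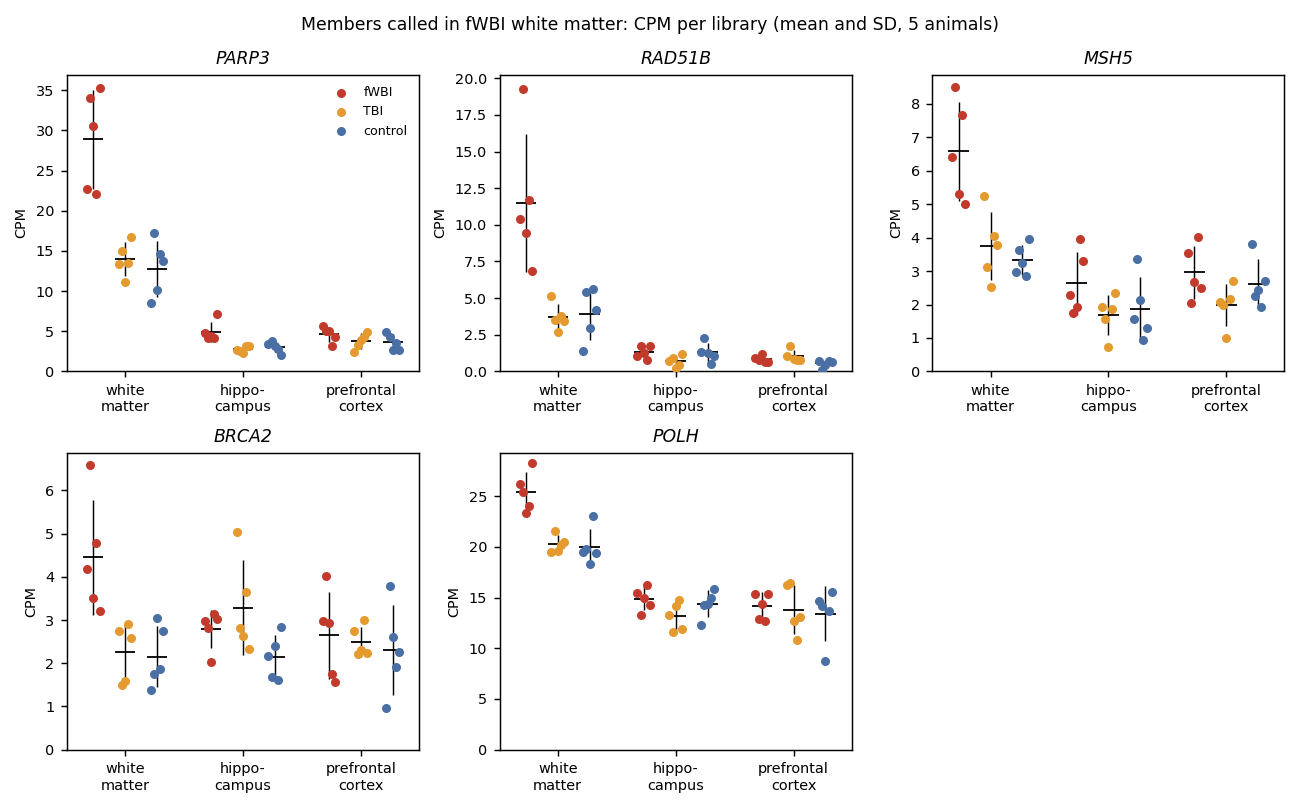
CPM of PARP3, RAD51B, MSH5, BRCA2 and POLH (y axes, linear from 0) in fWBI, TBI and control animals within each of 3 brain regions (x axes); points are libraries, horizontal lines means and vertical lines SD of 5 animals. PARP3 averaged 28.9 CPM in fWBI white matter, 14.0 CPM in TBI white matter and 12.8 CPM in control white matter, and was at most 7.13 CPM in any grey matter library.

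Against TBI white matter, 6 DNA repair genes rose in fWBI white matter and none fell, and PARP3, RAD51B, MSH5, BRCA2 and POLH were among them. These were 6 of 61 (9.84%), near the 7.33% of all genes called in this comparison, 4.8% as higher and 2.53% as lower. Both contrasts of fWBI white matter rest on the same 5 fWBI libraries, so the calls shared between them are not independent. Leaving out single libraries ended the call against TBI for MSH5 (without fWBI animal 2 or 4, or TBI animal 2, 3 or 5, adjusted p up to 0.0877), for POLH (without fWBI animal 1, 2 or 5, or TBI animal 1, 3, 4 or 5, up to 0.0732) and for BRCA2 (without fWBI animal 1, 2 or 4, or TBI animal 1, 2, 3 or 5, up to 0.139). PARP3 and RAD51B stayed called without any one library.

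Marker genes of other cell types also differed between fWBI and control white matter. Of 11 macrophage and activated myeloid markers, 9 rose against controls. All 11 summed to 3110 to 7170 CPM in fWBI white matter, 2690 to 3740 CPM in TBI white matter and 849 to 2910 CPM in control white matter. Their mean log2 CPM, in which abundant genes weigh less, was 6.49 to 7.62 in fWBI, 4.89 to 5.34 in TBI and 3.39 to 4.67 in control white matter. All 9 tested markers of oligodendrocyte precursors, the dividing glia of the adult brain, fell, with sums of 406 to 566 CPM in fWBI, 1300 to 1620 CPM in TBI and 864 to 1700 CPM in control white matter. Without control animals 1 and 3 the counts were 9 of 11 higher and 8 of 9 lower. Of 13 pan-neuronal markers, 8 were called lower in fWBI white matter with all libraries, but 0 of 13 without control animals 1 and 3 (edgeR; 3 at an unadjusted p under 0.05, with 7 folds above 0 and 6 below). For 5 myelin markers the counts were 0 with all libraries and 2 lower without those animals. No marker in these lists was at 0 in all libraries of a group. The pan-neuronal mean was a covariate only in an alternative fit of white matter. Beyond that, the part of these cell types in the levels of the DNA repair genes was not tested.

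Proliferation genes, which many recombination genes accompany in cycling cells, gave 1 call among 20 tested in fWBI against control white matter. Of all genes, 16.7% were called there. The call was TOP2A, a topoisomerase of dividing cells, higher in fWBI by 1.69 ± 0.50 on the log2 scale (adjusted p = 0.0292). It was lost without control animals 1 and 3. Against TBI white matter 3 of 20 rose, MCM6 by 0.83 ± 0.17 (adjusted p = 0.0066), KIF11 by 1.09 ± 0.26 (adjusted p = 0.0177) and TOP2A by 2.11 ± 0.51 (adjusted p = 0.0178). Of all genes, 4.8% were called higher and 2.53% lower in that contrast. The 23 proliferation genes found by symbol summed to 203 to 252 CPM in fWBI, 182 to 220 CPM in TBI and 203 to 233 CPM in control white matter. By this sum, to which abundant genes add most, the groups overlapped. The mean log2 CPM of the same genes was 2.21 to 2.75 in fWBI, 1.71 to 2.17 in TBI and 1.89 to 2.42 in control white matter. By that measure fWBI lay above TBI without overlap, and both overlapped controls.

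The sensors of double-strand breaks did not pass the test in any region or irradiated group. ATM, the kinase activated at such breaks, was at 349, 273, 351, 379 and 290 CPM in fWBI white matter, 392, 373, 418, 363 and 355 CPM in TBI white matter and 299, 340, 380, 384 and 420 CPM in control white matter. The groups overlapped throughout, and the log2 fold change was -0.12 ± 0.11 for fWBI (95% interval -0.35 to 0.11) and 0.07 ± 0.11 for TBI (-0.16 to 0.30) against control. For ATR, the kinase of stalled forks, the fold change was -0.02 ± 0.11 for fWBI (-0.25 to 0.21) and -0.04 ± 0.11 for TBI (-0.27 to 0.19). TP53BP1, which steers breaks towards end joining, gave -0.06 ± 0.13 (-0.35 to 0.22) and -0.28 ± 0.14 (-0.57 to 0.01), or 0.15 ± 0.13 and -0.08 ± 0.13 without control animals 1 and 3. Across this group of 9 genes in fWBI white matter, 8 had an interval within ±0.5.

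End joining genes had the smallest range of fold changes in fWBI white matter. All 5 tested (PRKDC, XRCC5, XRCC6, LIG4 and POLL) had log2 fold changes of 0.01 to 0.08 in fWBI against control white matter, each with its interval within ±0.5. PRKDC, the catalytic subunit of DNA-PK, averaged 647 ± 46.2 CPM in fWBI, 621 ± 70.9 CPM in TBI and 625 ± 60.6 CPM in control white matter (SD, n = 5 each), a log2 fold change of 0.08 ± 0.11 for fWBI against control (-0.14 to 0.30). XRCC5, the larger Ku subunit, averaged 315 ± 22.3 CPM in fWBI, 311 ± 16.4 CPM in TBI and 318 ± 32.0 CPM in control white matter.

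Among excision repair genes other than PARP3, none was called after irradiation. PARP1, the main sensor of single-strand breaks, averaged 166 ± 22.6 CPM in fWBI, 178 ± 31.0 CPM in TBI and 189 ± 23.2 CPM in control white matter (fWBI against control -0.15 ± 0.14, 95% interval -0.45 to 0.14). XRCC1, the scaffold of single-strand break repair, gave 0.08 ± 0.14 (-0.22 to 0.37) in the same contrast. For nucleotide excision, XPA, which verifies the lesion, gave 0.08 ± 0.17 (-0.28 to 0.44), and XPC, which finds it, gave 0.24 ± 0.12 (-0.01 to 0.50).

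XPC was at 130, 135, 126, 122 and 160 CPM in fWBI white matter, 139, 149, 126, 148 and 122 CPM in TBI white matter and 91.1, 120, 99.8, 136 and 135 CPM in control white matter. Its 2 lowest libraries were those of control animals 1 and 3. BRCA1, which prepares ends for recombination, gave 0.24 ± 0.14 in fWBI against control white matter (-0.06 to 0.55). Leaving out control animals 1 and 3 gave 0.09 ± 0.11 for XPC and 0.27 ± 0.17 for BRCA1. All 7 Fanconi anaemia genes tested lay between -0.21 and 0.05 with all libraries, with a median of -0.12. With those controls left out all 7 lay below 0, between -0.55 and -0.10 with a median of -0.23. None was called by edgeR either way, with 0 and 1 at an unadjusted p under 0.05.

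**Figure D2:**
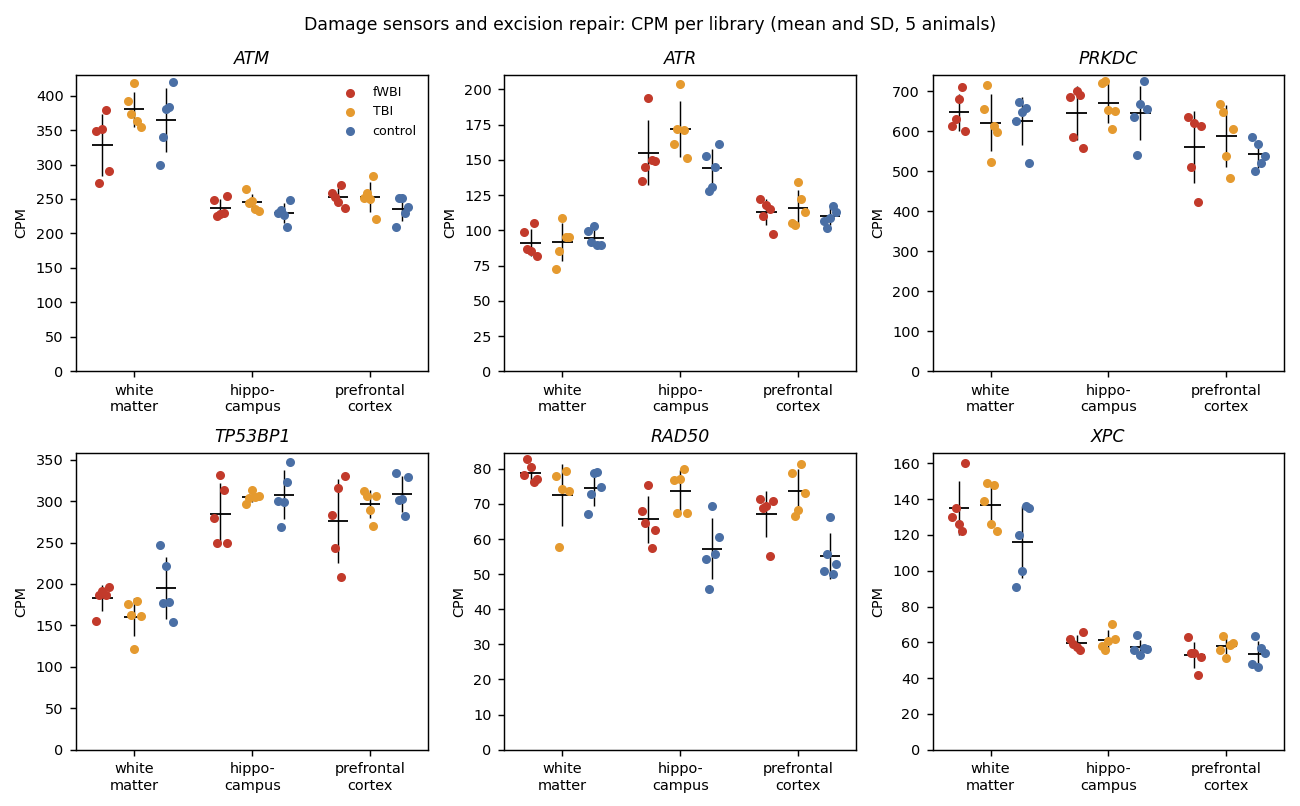
CPM of ATM, ATR, PRKDC, TP53BP1, RAD50 and XPC (y axes, linear from 0) in fWBI, TBI and control animals within each of 3 brain regions (x axes); points are libraries, horizontal lines means and vertical lines SD of 5 animals. The treatment groups overlap for most genes, while white matter has more XPC and less TP53BP1 than either grey matter region.

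In hippocampus no DNA repair gene was called after fWBI among 61 tested (0.723% of all genes were called, and 2 DNA repair genes had an unadjusted p under 0.05; edgeR, with 0 called by DESeq2 and by limma-voom). PARP3 had the smallest p: it was at 4.80, 4.21, 4.43, 4.11 and 7.13 CPM in fWBI hippocampus, against 3.38, 3.82, 3.19, 2.82 and 2.01 CPM in control hippocampus. The groups did not overlap, and fWBI animal 5 stood well above the rest. The log2 fold change was 0.69 ± 0.21 (adjusted p = 0.182). TBI hippocampus held 2.61, 2.48, 2.31, 3.17 and 3.22 CPM, below every fWBI library, and the fWBI against TBI difference of 0.87 missed the threshold (adjusted p = 0.123; 0.0332 with DESeq2), as did all other DNA repair genes in that contrast (0.339% of all genes called; 3 DNA repair genes had an unadjusted p under 0.05).

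The other genes called in fWBI white matter had lower means in hippocampus than in fWBI white matter. RAD51B averaged 1.32 ± 0.42 CPM in fWBI, 0.685 ± 0.372 CPM in TBI and 1.29 ± 0.62 CPM in control hippocampus (SD, n = 5 each). MSH5 averaged 2.64 ± 0.945 CPM in fWBI, 1.69 ± 0.599 CPM in TBI and 1.86 ± 0.948 CPM in control hippocampus, and BRCA2 2.80 ± 0.438 CPM in fWBI, 3.29 ± 1.09 CPM in TBI and 2.14 ± 0.512 CPM in control hippocampus. POLH averaged 14.9 ± 1.12 CPM in fWBI, 13.2 ± 1.41 CPM in TBI and 14.4 ± 1.31 CPM in control hippocampus. None of the 4 passed the test in that region.

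In prefrontal cortex after fWBI none of 60 was called (1.15% of all genes; 8 of the 60 had an unadjusted p under 0.05; edgeR, with 0 called by DESeq2 and by limma-voom). The smallest p-values belonged to POLK (log2 fold change 0.25, adjusted p = 0.22), RAD9A (-0.32, adjusted p = 0.227), RAD50 (0.26, adjusted p = 0.259), XPA (0.29, adjusted p = 0.321) and PARP1 (-0.19, adjusted p = 0.324). None was called between fWBI and TBI prefrontal cortex either, where 0.29% of all genes were called and 1 of the 60 had an unadjusted p under 0.05.

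Years after TBI, no DNA repair gene was called against controls in any region, and few genes of any kind were: 0.0722% of all genes for white matter, 0% for hippocampus and 0% for prefrontal cortex. By edgeR, 1 of 61 DNA repair genes in white matter had an unadjusted p under 0.05. In hippocampus there were 8 of 61 and in prefrontal cortex 9 of 60. These counts are given without the share of all genes, so no excess is read from them. DESeq2 and limma-voom called 0 in white matter and hippocampus, and edgeR called 0 in white matter without control animals 1 and 3. RAD50, the structural subunit of the break-sensing complex, had the smallest p in both grey matter regions.

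In prefrontal cortex RAD50 was at 78.8, 66.6, 68.3, 81.3 and 73.0 CPM in TBI animals, against 51.0, 55.8, 66.3, 49.9 and 52.9 CPM in controls. The groups did not overlap, though TBI animal 2 and control animal 3 were almost level. The log2 fold change was 0.41 ± 0.10 (adjusted p = 0.121 by edgeR). It passed the threshold in this contrast with DESeq2 (adjusted p = 0.0163) and with limma-voom (adjusted p = 0.0476) but not with the other alternatives. In hippocampus it was 0.33 ± 0.11 (adjusted p = 0.359) and in white matter -0.03 ± 0.09 (adjusted p = 0.915).

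**Figure D3:**
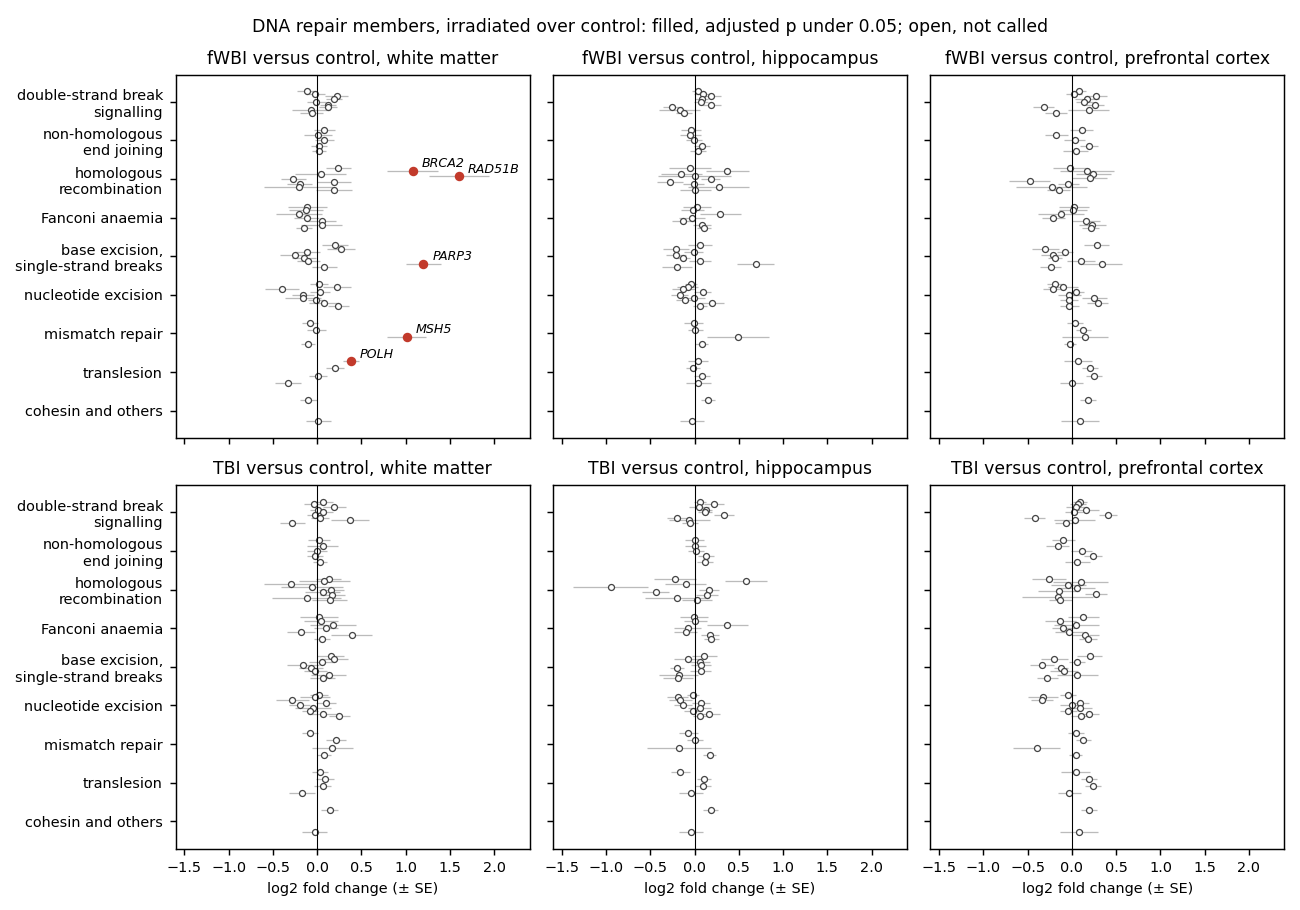
Log2 fold change with its standard error (x axes) of the DNA repair genes tested and reported, grouped by pathway (y axes), for fWBI over control (upper row) and TBI over control (lower row) in 3 regions; filled points had an adjusted p under 0.05. The 5 called genes, PARP3, RAD51B, MSH5, BRCA2 and POLH, are all in fWBI white matter.

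Whether the effect of fWBI differed between regions was tested directly in 1 model of the 45 libraries, blocked by animal. Between white matter and prefrontal cortex, 3 of 61 DNA repair genes were called (4.92%, against 9.96% of all genes). The effect on PARP3 was larger in white matter by 0.86 ± 0.26 on the log2 scale (adjusted p = 0.0302). For RAD9A, a subunit of the checkpoint clamp, the difference was 0.45 ± 0.14 (adjusted p = 0.0317), with 0.12 ± 0.10 in white matter and -0.32 ± 0.12 in prefrontal cortex, neither of which was called alone. For FANCM, a fork-remodelling translocase, it was -0.35 ± 0.11 (adjusted p = 0.0427).

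Between white matter and hippocampus, 1 of 61 was called (8.96% of all genes), RAD51B with a difference of 1.60 ± 0.50 (adjusted p = 0.0427). All of these calls were lost without control white matter animals 1 and 3: the adjusted p was then 0.263 for PARP3, 0.101 for RAD9A, 0.137 for FANCM and 0.277 for RAD51B, and the differences for PARP3 and RAD51B were 0.50 and 1.09. The only DNA repair gene called between white matter and prefrontal cortex without them was POLK, a translesion polymerase (-0.40, adjusted p = 0.00974). Calls also ended without single animals: PARP3 without fWBI animal 2, 3, 4 or 5 or control 1 or 3, RAD9A without fWBI animal 1, 2, 3 or 5 or control 1 or 2, FANCM without fWBI animal 2, 3 or 5 or control 1, 3 or 5, and RAD51B without fWBI animal 1, 2, 3 or 4 or control 1, 2 or 3. That a gene was called in white matter and not in grey matter does not by itself show a regional difference, and for MSH5, BRCA2 and POLH none was called (differences from prefrontal cortex of 0.87, 0.90 and 0.31, adjusted p = 0.0858, 0.0904 and 0.257).

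For TBI no DNA repair gene differed in effect between regions by edgeR (0.0301% of all genes for white matter against prefrontal cortex and 0.00602% against hippocampus, with 5 and 2 DNA repair genes at an unadjusted p under 0.05). The smallest p-values were those of RAD50, with -0.43 against prefrontal cortex (adjusted p = 0.124; 0.0315 with DESeq2) and -0.37 against hippocampus (adjusted p = 0.192).

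**Figure D4:**
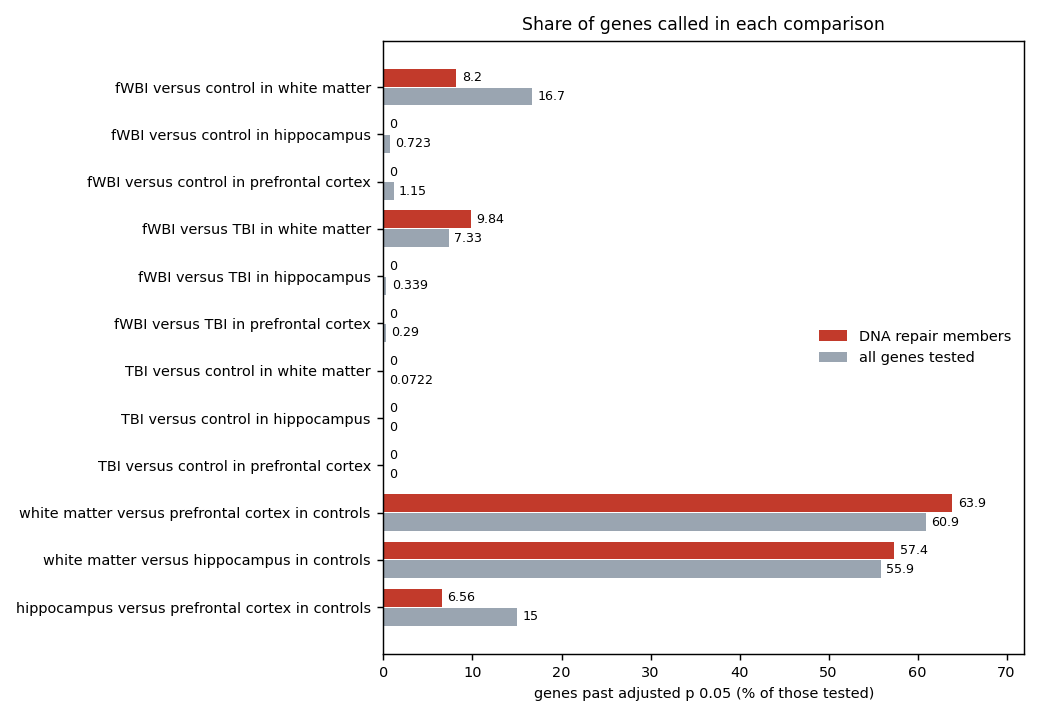
Share of genes with an adjusted p under 0.05 (x axis, % of those tested) among DNA repair genes and among all genes tested, for 12 comparisons (y axis). The DNA repair share was 8.2% against 16.7% of all genes for fWBI over control white matter, and 63.9% against 60.9% for white matter over prefrontal cortex.

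As for all genes, more DNA repair genes differed between white and grey matter than between treatments. In the 5 control animals, 39 of 61 DNA repair genes differed between white matter and prefrontal cortex (63.9%, against 60.9% of all genes), 30 of them higher in white matter and 9 lower. Over all genes the calls were near evenly split, with 29.5% higher and 31.4% lower, and the median log2 fold change was 0.32 for the DNA repair genes and -0.01 for all genes. Without control white matter animals 1 and 3 the counts were 30 higher and 6 lower, or 59% against 62.6% of all genes. White matter and hippocampus differed for 35 of 61 (57.4%, against 55.9% of all genes), 27 higher and 8 lower in white matter, where all genes gave 28.1% higher and 27.8% lower. Leaving out the same 2 libraries gave 27 higher and 9 lower over hippocampus, with 59.8% of all genes called.

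Of 7 Fanconi anaemia genes tested, 6 exceeded prefrontal cortex and 4 exceeded hippocampus in white matter, and none was called lower. The median log2 fold change was 0.89 over prefrontal cortex and 0.77 over hippocampus. The same counts, 6 and 4, were found without control white matter animals 1 and 3. FANCE, which bridges the core complex to its substrate, was at 7.86, 17.4, 11.2, 15.8 and 28.8 CPM in control white matter, against 4.18, 3.21, 1.87, 3.84 and 2.92 CPM in control prefrontal cortex, a log2 fold change of 2.28 ± 0.35 (adjusted p = 0.000288). White matter was higher in all 5 animals, and least so in animal 1. FANCL, the ubiquitin ligase of the complex, was at 70.3, 112, 83.6, 160 and 153 CPM in control white matter, against 28.7, 47.8, 38.0, 42.7 and 40.9 CPM in control prefrontal cortex (1.48 ± 0.17, adjusted p = 3.91e-05). Without animals 1 and 3 in white matter the fold change was 2.77 ± 0.27 for FANCE and 1.74 ± 0.15 for FANCL.

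Single genes of other pathways also ran higher in white matter. RAD51B had the largest log2 fold change over prefrontal cortex, 2.76 ± 0.52 (adjusted p = 0.000897), at 0.0973 to 0.739 CPM in control prefrontal cortex, which is 1 to 6 counts per library. PARP3 was higher by 1.80 ± 0.23 (adjusted p = 8.35e-05) and XPC by 1.08 ± 0.10 (adjusted p = 1.34e-05). These values were 3.29 ± 0.51 for RAD51B, 2.15 ± 0.19 for PARP3 and 1.20 ± 0.11 for XPC without control white matter animals 1 and 3. PARP3 and RAD51B were thus higher in white matter already in controls. Over hippocampus, white matter was higher by 2.12 ± 0.35 for FANCE, 2.05 ± 0.23 for PARP3, 1.49 ± 0.46 for RAD51B, 1.29 ± 0.22 for BRCA1 and 1.10 ± 0.25 for XRCC2, a recombination gene (adjusted p from 4.88e-05 to 0.0161). The call for RAD51B over hippocampus was lost without control animal 4 (adjusted p = 0.0765) or 5 (adjusted p = 0.0718).

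A smaller set ran lower in white matter. OGG1, the glycosylase that removes oxidised guanine, was at 30.2, 15.5, 21.0, 15.1 and 17.6 CPM in control white matter, 55.4, 58.9, 36.5, 47.7 and 43.8 CPM in control hippocampus and 31.9, 35.8, 32.8, 43.1 and 34.1 CPM in control prefrontal cortex. Its highest white matter libraries were those of animals 1 and 3, and the log2 fold change was -1.31 ± 0.18 against hippocampus (adjusted p = 0.000157) and -0.89 ± 0.18 against prefrontal cortex (adjusted p = 0.00143), or -1.64 and -1.21 without them. ERCC2, a helicase of transcription and excision repair, fell by 0.94 against hippocampus and by 0.82 against prefrontal cortex. TP53BP1 gave -0.69 ± 0.13 (adjusted p = 0.00118) and -0.70 ± 0.13 (adjusted p = 0.000884) in these contrasts.

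ATR was lower in white matter than in hippocampus (-0.62 ± 0.10, adjusted p = 0.000321), at 99.5, 92.0, 103, 89.5 and 89.6 CPM in control white matter, against 153, 128, 131, 145 and 161 CPM in control hippocampus. ATM ran the opposite way, 0.64 ± 0.11 higher in white matter (adjusted p = 0.000474), or 0.71 ± 0.11 without control animals 1 and 3. RAD9A gave -0.55 ± 0.12 against hippocampus (adjusted p = 0.0027). The falls of RAD9A (-0.33, adjusted p = 0.0319) and LIG1, the replicative ligase (-0.41, adjusted p = 0.0404), against prefrontal cortex were lost without control animals 1 and 3 (adjusted p = 0.0902 and 0.158), and each also ended without most single animals (adjusted p up to 0.136 and 0.114).

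All 13 pan-neuronal markers were lower and all 5 myelin markers higher in control white matter than in prefrontal cortex, and the part of cell makeup in the regional differences was not tested. Of 5 end joining genes tested, POLL alone was called lower in white matter, by -0.33 against prefrontal cortex and -0.31 against hippocampus, and none was higher. Both POLL calls were lost without control animals 1 and 3 (-0.35, adjusted p = 0.0593, and -0.34, adjusted p = 0.0688).

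Hippocampus and prefrontal cortex, both grey matter, differed for 4 of 61 DNA repair genes (6.56%, against 15% of all genes, 7.68% higher and 7.29% lower). FANCI, which is clamped on DNA at crosslinks, was higher in hippocampus by 0.64 ± 0.14 (adjusted p = 0.00878), ATR by 0.38 ± 0.10 (adjusted p = 0.0195) and MSH3, which recognises larger loops, by 0.37 ± 0.11 (adjusted p = 0.0376). These calls ended without control animal 5 (adjusted p = 0.051 for FANCI, 0.0934 for ATR and 0.171 for MSH3), and those of ATR and MSH3 also without animal 2, 3 or 4 (adjusted p = 0.0591 to 0.133).

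**Figure D5:**
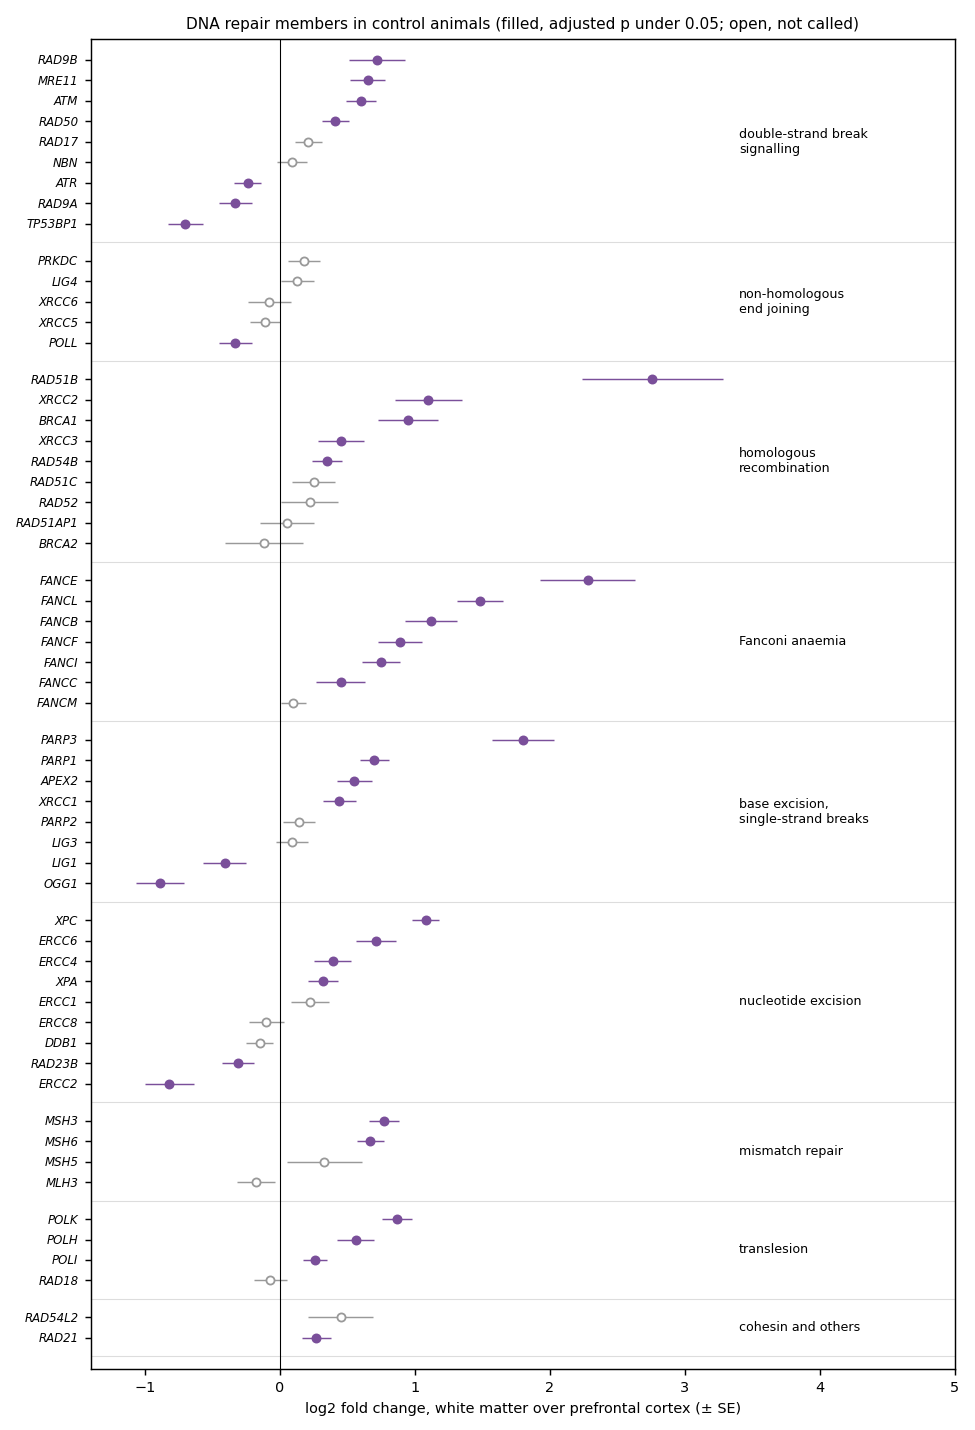
Log2 fold change of control white matter over control prefrontal cortex with its standard error (x axis) for 57 DNA repair genes, grouped by pathway (y axis); filled points had an adjusted p under 0.05. Of the 57, 29 were called and lie above 0 and 8 were called and lie below, and 6 of the 7 Fanconi anaemia genes were called above 0.

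Other repair genes, which the name patterns do not take, moved both ways in fWBI white matter. Of 61 tested, 3 rose against controls, RBBP8 (an end resection factor, 0.80 ± 0.21, adjusted p = 0.0158), CHEK2 (a checkpoint kinase, 0.93 ± 0.27, adjusted p = 0.026) and BARD1 (the partner of BRCA1, 0.81 ± 0.26, adjusted p = 0.0462). A further 3 fell, PARG (-0.33 ± 0.10, adjusted p = 0.0314), PMS2 (-0.55 ± 0.17, adjusted p = 0.0327) and TOPBP1 (-0.25 ± 0.08, adjusted p = 0.0456). That is 9.84% of the list, against 16.7% of all genes. Without control animals 1 and 3 RBBP8 and CHEK2 kept their calls, POLQ (the polymerase of microhomology-mediated end joining, 1.56 ± 0.35, adjusted p = 0.00949) joined them, and none fell.

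Targets of p53, the factor that damage kinases activate, were tested as 12 genes in white matter. Other targets on the list, among them CDKN1A, MDM2 and GADD45A, were not found by symbol and not tested. Of the 12, 6 rose in fWBI white matter against controls and none fell (50%, against 16.7% of all genes). The median log2 fold change was 0.47, against -0.03 for all genes. The list was chosen with earlier results of these data known, so these shares are description only. EDA2R, a cell surface receptor, averaged 3.16 CPM in fWBI and 0.643 CPM in control white matter (2.30 ± 0.40, adjusted p = 0.00084). TP53I3, an oxidoreductase, averaged 17.1 CPM in fWBI and 8.92 CPM in control white matter (0.97 ± 0.19, adjusted p = 0.00203), and BAX, which permeabilises mitochondria, 16.8 CPM in fWBI and 11.1 CPM in control white matter (0.63 ± 0.17, adjusted p = 0.0155). Without control animals 1 and 3 the count was 3 of 12 (25%, against 10.8% of all genes), EDA2R, TP53I3 and ZMAT3. Against TBI white matter TP53I3 alone was called (0.83 ± 0.19, adjusted p = 0.0121). In hippocampus and prefrontal cortex, and after TBI in every region, none of these 3 lists' tested genes was called against controls by edgeR. The lists are the p53 targets, other repair genes and proliferation genes. EDA2R did not pass the filter on low counts in hippocampus, so it was not tested there.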

How the data were processed

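Per the labels' protocols, RNA of homogenised tissue from saline-perfused animals was depleted of ribosomal RNA and made into stranded libraries. Values deposited by the authors are unscaled read counts per gene in whole numbers. Per the submitters' processing notes, STAR, featureCounts, FastQC and DESeq2 were used (no versions). Build, annotation and strand setting were not given in the sources used here. Reads of overlapping genes may therefore be shared: in the RefSeq annotation no gene overlaps PARP3 or POLH, while 5 uncharacterised genes overlap RAD51B and 1 each BRCA2 and MSH5.

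Some of the 64 genes enter the counts but are not reported here by name. The members, gene lists and tests were chosen with earlier results of these data known. Irradiation comparisons were fitted within a region on its 15 libraries with TMM scaling, edgeR's default filter and its quasi-likelihood test (in R 4.3.3, with edgeR 4.0.16). Control animals served for comparing regions, and 45 libraries for comparing effects, each blocked by animal. Tests were two-sided, with Benjamini-Hochberg adjustment over all genes and a threshold of 0.05; no list was tested as a set. Log2 CPM took a prior count of 2. Apart from the genes not reported, members called after irradiation were named. Where fewer than 5 passed, the 5 smallest p-values were the candidates, and not all are given. Between regions, the candidates were the 5 largest rises and falls with at least 1 CPM. Leading genes of each pathway are given whatever the test found. XRCC5 and POLL were added as examples after their values were seen. Libraries of 1 animal deviated together across regions (median r = 0.31 across genes, 41 of 45 pairs above 0.1). Alternatives used DESeq2 1.42.0, limma 3.58.1, other filters, a marker covariate, a replicate block and left-out libraries. Totals were 6625435 to 12541507 counts, and BRCA2 had 12 to 66 counts in a white matter library, so low genes rest on few reads. Animals were separate between treatments, so the p-values of irradiation comparisons within a region measure the spread between animals. Those for regions and for differences of effect, blocked by animal, measure the spread left within animals.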

Additional observations from a re-analysis of the deposited data

Results flagged for a closer look

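Libraries far from the other 4 of their group were looked for in 126 groups of 5, from 14 described genes in 9 groups each, where chance flags about 1 in 20. There were 6. PARP3 in fWBI hippocampus animal 5 was at 7.13 CPM, against 4.11 to 4.80 CPM in the other 4 animals, and PARP1 in fWBI white matter animal 5 was at 126 CPM, against 172 to 183 CPM. TP53BP1 in fWBI white matter animal 1 was at 155 CPM, against 187 to 196 CPM. In fWBI hippocampus, ATR in animal 3 was at 194 CPM, against 135 to 150 CPM. Control prefrontal cortex animal 3 was low for POLH, at 8.71 CPM against 13.7 to 15.6 CPM, and for XRCC1, at 10.0 CPM against 13.5 to 14.7 CPM.

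The fWBI effect differed between white matter and prefrontal cortex, by the test of the difference, for PARP3 (0.86), RAD9A (0.45) and FANCM (-0.35), and between white matter and hippocampus for RAD51B (1.60), all on the log2 scale and all lost without control white matter animals 1 and 3.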

How the results depend on the processing

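The called results for single genes that were candidates by the naming rules above numbered 39. Between regions these were only the 5 largest rises and falls, so other regional calls are not in the numbers that follow. Of the 39, 22 kept their call under every alternative. Over 533 alternatives 439 kept it, 94 lost it and 0 reversed. PARP3, RAD51B and MSH5 in fWBI against control white matter kept it under all 19 (adjusted p up to 0.00459, 0.02 and 0.0351), and 4 of 731 alternatives brought an uncalled named gene past the threshold. Counts of called DNA repair genes moved as follows, and the cause was not tested. DESeq2 gave 1 in place of 0 for TBI against control prefrontal cortex (limma-voom also 1), 1 in place of 0 for fWBI against TBI hippocampus, 5 in place of 3 for the fWBI effect in white matter minus prefrontal cortex and 1 in place of 0 for that of TBI. Without the count filter the numbers were 1 in place of 4 for hippocampus against prefrontal cortex, 1 in place of 3 for the fWBI effect in white matter minus prefrontal cortex and 0 in place of 1 for that minus hippocampus. Without control white matter animals 1 and 3 the last pair gave 1 and 0.

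Leaving out 1 animal at a time gave 4 to 5 for fWBI against control white matter, 3 to 6 for fWBI against TBI white matter, 26 to 37 for white matter against prefrontal cortex and 26 to 37 against hippocampus. It gave 0 to 4 for hippocampus against prefrontal cortex, 0 to 4 for the fWBI effect in white matter minus prefrontal cortex, 0 to 3 for that minus hippocampus and 0 to 0 elsewhere.

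Replicate numbers did not pair animals of different treatments (median r = 0.01, 15 of 45 pairs above 0.1). With the replicate block the count was 3 in place of 6 for fWBI against TBI white matter, and BRCA2 was called in fWBI white matter neither against TBI (0.99, adjusted p = 0.11) nor against control (1.06, adjusted p = 0.0553). With no replicate block for the animal it was 1 in place of 3 for the fWBI effect in white matter minus prefrontal cortex.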
